A study of Mus musculus with 2 samples.

Results

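Type 2 conventional dendritic cells (cDC2) were described in the immune fraction of subcutaneous CT26 tumours of BALB/c mice, in 1 droplet library from mice on an arginine-deficient diet and 1 from mice on a normal diet. A cell was counted as cDC2 when its barcode held at least 2 unique molecular identifiers (UMIs, each standing for 1 captured transcript) of Cd209a and at least 1 of H2-DMb2. It also had to hold at most 1 UMI of Xcr1 and Clec9a together, at most 1 of Fscn1, at most 15 of C1qa, C1qb and C1qc together and at most 1 of Cd3d, Cd3e and Cd3g together. The cells were thus chosen by measured UMIs of these genes, whose levels in cDC2 are given as a description. Barcodes with at least 200 genes and at most 10% mitochondrial UMIs were considered. The rule found 152 cells among 13875 barcodes of the library named Arg and 70 among 13487 of the library named Control, or 222 of 27362 in all.

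Both groups were BALB/c mice that entered the study when 5 weeks old. Mice of the first group ate chow of matched calories from which arginine had been taken out, and those of the second ate normal chow. Each diet began 1 week ahead of the injection of CT26, an established mouse colon carcinoma line, and tumours were taken on day 20. No diet stands in the label of the Arg library, and the design text of the series was the source for calling it arginine-deficient. The number and sex of the mice behind each library are not given in the sources used here, and cells were enriched on CD45-coated beads before loading, so the shares below are shares of bead-enriched cells.

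cDC2 are dendritic cells that take up antigen in tissues and present it on major histocompatibility complex (MHC) class II molecules, mainly to CD4 T cells. They depend on the transcription factor IRF4, carry C-type lectins such as CD209a and the galactose-type lectins MGL2 and CLEC10A, and are known for driving type 2 and type 17 helper responses. In tumours they stand beside cDC1, which cross-present antigen to CD8 T cells, mature migratory dendritic cells and plasmacytoid dendritic cells (pDC), and they share genes with dendritic cells that arise from monocytes.

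With 1 library per diet there was no replicate, so no test was run. Every difference below is between these 2 libraries and not between diets, and all intervals are 95% intervals that cover counting error only. Intervals of summed counts take the UMIs as independent draws, and so understate the error of genes carried by a handful of cells. The libraries held 155927693 UMIs (Arg) and 191505551 UMIs (Control). cDC2 had a median of 12168 UMIs in the Arg library, with a range of 2562 to 78049, and of 13019 in Control cells, with a range of 6332 to 68690. The summed depth was 2113587 UMIs over the Arg cells and 1097530 over the Control cells. The libraries had 42 kept barcodes in common, none of which was a cDC2 barcode. A doublet caller marked 9 Arg and 3 Control cDC2, and 12 Arg and 2 Control cDC2 also held at least 2 UMIs of the NK cell genes Ncr1 and Klrb1c.

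Shown first are 5 promoters, picked from those of the genes described below, that carry a sequence feature. They run from 250 bases before to 50 bases after the gene start (RefSeq, build GRCm38.p6), are printed in the direction of transcription, and were chosen after their letters had been searched. Capitals mark the palindrome TTCNNNNGAA, with the spacing that the interleukin-4 factor STAT6 binds, in the promoters of Ccl17 (chr8:94810203-94810502, plus strand), Retnla (chr16:48842359-48842658, plus strand) and Pdcd1lg2 (chr19:29410669-29410968, plus strand).

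Ccl17: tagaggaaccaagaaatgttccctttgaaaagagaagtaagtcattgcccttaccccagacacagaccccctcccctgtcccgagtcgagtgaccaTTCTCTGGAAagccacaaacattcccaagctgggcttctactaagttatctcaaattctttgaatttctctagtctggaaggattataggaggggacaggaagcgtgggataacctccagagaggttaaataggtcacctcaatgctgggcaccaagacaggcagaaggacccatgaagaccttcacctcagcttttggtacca

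Retnla: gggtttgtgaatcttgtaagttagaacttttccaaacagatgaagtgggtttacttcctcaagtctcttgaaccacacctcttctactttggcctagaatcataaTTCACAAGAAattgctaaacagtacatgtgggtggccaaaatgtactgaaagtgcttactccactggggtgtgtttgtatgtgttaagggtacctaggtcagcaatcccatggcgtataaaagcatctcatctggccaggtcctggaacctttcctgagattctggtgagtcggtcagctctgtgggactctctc

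Pdcd1lg2: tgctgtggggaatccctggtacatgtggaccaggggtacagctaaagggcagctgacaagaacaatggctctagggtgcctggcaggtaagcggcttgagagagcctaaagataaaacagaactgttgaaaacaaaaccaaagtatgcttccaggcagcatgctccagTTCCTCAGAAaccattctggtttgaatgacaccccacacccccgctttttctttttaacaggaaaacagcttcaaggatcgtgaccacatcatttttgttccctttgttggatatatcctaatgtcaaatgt

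In the promoters of Cd209a (chr8:3748935-3749234, minus strand) and Cd209d (chr8:3878450-3878749, minus strand), capitals mark GGAANNGAAA on the opposite strand, the composite letters known to bind PU.1 together with IRF4 or IRF8.

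Cd209a: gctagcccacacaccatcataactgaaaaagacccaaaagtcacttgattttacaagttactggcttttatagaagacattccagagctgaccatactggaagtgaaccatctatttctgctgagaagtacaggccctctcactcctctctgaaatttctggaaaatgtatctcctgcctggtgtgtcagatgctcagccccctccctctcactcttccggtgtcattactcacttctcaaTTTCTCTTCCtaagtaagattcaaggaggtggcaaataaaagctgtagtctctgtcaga

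Cd209d: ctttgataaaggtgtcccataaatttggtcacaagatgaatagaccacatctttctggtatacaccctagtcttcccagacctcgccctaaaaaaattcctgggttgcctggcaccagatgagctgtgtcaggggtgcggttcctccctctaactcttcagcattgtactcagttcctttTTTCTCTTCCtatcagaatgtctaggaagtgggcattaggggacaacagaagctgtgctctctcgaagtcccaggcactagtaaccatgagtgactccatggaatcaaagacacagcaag

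Both strands were searched in 32851 promoter windows of the same length. TTCNNNNGAA was present in 2284 of them (6.95%), and GGAANNGAAA in 892 (2.72%). Of 21 genes listed as targets or parts of the interleukin-4 and interleukin-13 response, 16 had a promoter in the table, and 3 of them (18.8%), Ccl17, Pdcd1lg2 and Retnla, held TTCNNNNGAA. The share was the same in a list of cDC2 identity genes, where 3 of 16 (18.8%), Ccl17, Cd209e and Itgax, held it. GGAANNGAAA was held by 2 of the 16 identity genes (12.5%), Cd209d and Cd209e, in a list that leaves out Cd209a. It was held by 0 of the 16 interleukin-4 and interleukin-13 genes. The marks of Cd209a and Cd209d read the same letters, TTTCTCTTCC, starting 9 and 70 bases before the gene start. A match is a description of these letters and does not show binding.

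cDC2 made up a larger share of the Arg library. They were 1.10% of kept barcodes (152 cells, exact Clopper-Pearson interval 0.929 to 1.28%) in the Arg library and 0.519% (70 cells, 0.405 to 0.655%) in the Control library, a ratio of 2.11 with an exact conditional interval of 1.58 to 2.84. Among the distinct barcodes that passed any of 4 dendritic gates, cDC2 were 25.8% (152 of 590) in the Arg library and 15.6% (70 of 449) in the Control library, a ratio of 1.65 (1.24 to 2.23). The other dendritic gates stood closer to parity in their share of kept barcodes. cDC1 (Xcr1 and Clec9a) had 229 Arg and 178 Control cells, with a ratio of 1.25 (1.02 to 1.53). pDC (Siglech with Ccr9 or Cox6a2) had 177 and 161 cells, with a ratio of 1.07 (0.858 to 1.33), and mature dendritic cells (Fscn1 with Ccr7) had 59 and 65 cells, with a ratio of 0.882 (0.610 to 1.27).

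Monocytes, gated on Ly6c2 and Csf1r, were 15.9% of the Arg and 7.36% of the Control barcodes, a ratio of 2.16 close to that of cDC2. Macrophages gated on C1q genes went the other way, with 16.8% and 30.5% of barcodes. Shares are relative, so a larger share of one class lowers the others. The bound of 15 C1q UMIs kept few cells out: 8 Arg and 4 Control cells met every other condition of the cDC2 rule with 16 or more. The bound on Cd3 genes kept out 40 Arg and 8 Control cells that met every other condition, with 977 and 468 CPM of Mgl2.

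**Figure D1:**
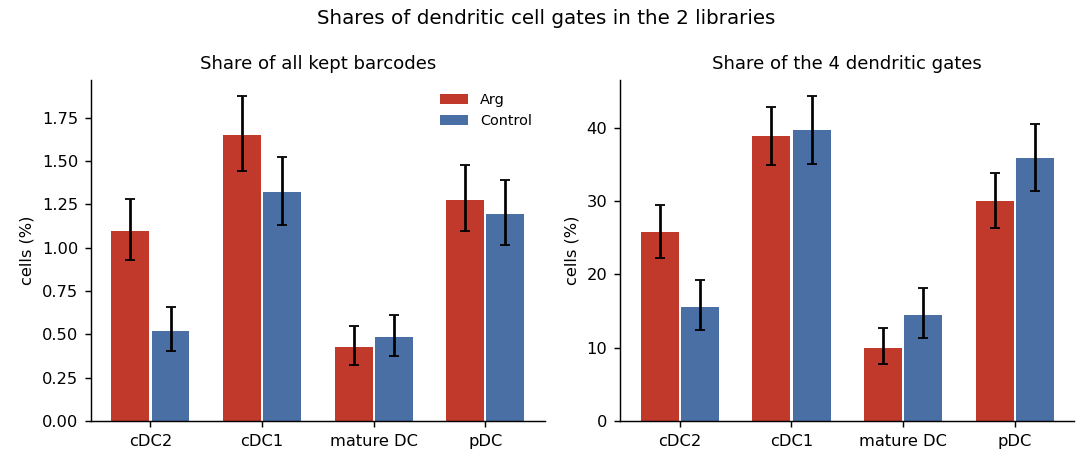
Percentage of cells (y axis) in each of 4 dendritic gates, as a share of all kept barcodes (left) and of the barcodes passing any dendritic gate (right), in the Arg (red) and Control (blue) library. Bars are shares of 1 library each and lines are exact 95% intervals for counting error; a barcode can pass 2 gates, and cDC2 is the gate with the widest gap, 1.10% and 0.519% of kept barcodes.

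The rule rests on low counts, and the cells at its edge were examined. Cd209a had a median of 8 UMIs per cDC2 in both libraries, with maxima of 42 (Arg) and 54 (Control), and H2-DMb2 had medians of 3.5 and 3. Just inside the bound, 30 Arg and 14 Control cells held exactly 2 Cd209a UMIs, and just outside it 47 and 19 cells held exactly 1 with every other condition met. Mgl2, the galactose-type lectin that marks dermal cDC2, was at 784 UMIs per 1000000 (CPM) in the Arg and 764 CPM in the Control cells inside, against 901 and 449 CPM in those outside. Lyz2, the lysozyme gene of monocytes and macrophages, was at 2111 and 1683 CPM inside and at 4355 and 3919 CPM outside. The cells just outside therefore held Mgl2 together with more Lyz2 than the cells just inside, in both libraries.

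The bound on H2-DMb2, the beta chain of the MHC class II peptide exchange factor H2-DM, set aside more cells. It left out 82 Arg and 45 Control cells with no H2-DMb2 UMI that met every other condition. The same Cd209a bound chose these cells, so its levels in them, 795 CPM (Arg) and 704 CPM (Control), are given as a description. Mgl2 was at 145 and 146 CPM in them, against 1354 CPM in Arg and 1017 CPM in Control cDC2. Flt3, the growth factor receptor of dendritic cells and their precursors, was at 77.6 and 138 CPM in these cells, and at 13.7 and 19.1 CPM in cDC2. H2-Aa, another MHC class II gene, was at 4181 CPM in the Arg and 3863 CPM in the Control cells outside, against 8170 and 7428 CPM in cDC2. The cells outside were also shallower, with medians of 8406.5 (Arg) and 8537 UMIs (Control), against 12168 and 13019 UMIs in cDC2; the part of depth in this split was not tested.

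The label was checked against genes the rule did not use. Mgl2 was found in 119 of 152 Arg cDC2 and 54 of 70 Control cDC2, with per-cell medians of 886 and 585 CPM. Over all other gates its level was lower, with 184 and 52.3 CPM in cDC1 and 109.9 and 16.3 CPM in monocytes. Clec10a, its close relative, was at 225 CPM in Arg and 251 CPM in Control cDC2, against 20.2 and 12.4 CPM in monocytes and 257 and 124 CPM in pDC. Zbtb46, a transcription factor of the conventional dendritic lineage, was at 49.7 and 49.2 CPM in cDC2 and at 1.59 and 1.36 CPM in monocytes. Irf4, the factor cDC2 depend on, was at 43.5 CPM in Arg and 87.5 CPM in Control cDC2, above both libraries' cDC1 (6.50 and 4.09 CPM). Of these genes Mgl2 was highest in cDC2 among the 8 gates, while Clec10a did not set Arg cDC2 apart from pDC and Zbtb46 was higher in cDC1 (57.4 and 104 CPM).

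Others stand apart from it. Flt3 was found in 18 Arg and 8 Control cDC2, and its levels of 13.7 and 19.1 CPM were below the 114 and 132 CPM of cDC1. Fcgr1, the high-affinity IgG receptor of monocytes and macrophages, was at 119.7 CPM in Arg and 102 CPM in Control cDC2, between cDC1 (56.1 and 18.9 CPM) and monocytes (390 and 442 CPM). Csf1r, the receptor of the macrophage growth factor, was at 58.7 and 65.6 CPM in cDC2 and at 203 and 218 CPM in monocytes. A UMI of Ly6c2 or Fcgr1 was present in 104 Arg cDC2 (68.4%) and 47 Control cDC2 (67.1%), so that the share was alike in both libraries. The ratio of cDC2 shares was 2.03 when all of these cells were left out. How much of the Fcgr1 level was free RNA was not tested: T cells, which should lack the gene, held 53.5 CPM in the Arg and 23.4 CPM in the Control library.

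Summed over the whole marker lists, the 18 monocyte genes came to 5813 CPM in Arg and 7501 CPM in Control cDC2, and the 17 macrophage genes to 2351 and 2165 CPM. Every Arg cDC2 and every Control cDC2 held some monocyte marker. The other dendritic lists came to 1314 and 975 CPM for cDC1, 1679 and 1313 CPM for mature dendritic cells and 690 and 1098 CPM for pDC. NK cell markers came to 854 and 667 CPM, with up to 15260 CPM in 1 Arg cell and 15349 CPM in 1 Control cell, and none in 82 Arg and 42 Control cells. T cell markers came to 71.9 and 82.9 CPM, a sum that the bound on Cd3 genes keeps low. Tumour epithelial markers came to 26.0 and 14.6 CPM, with Krt8, Krt18 and Krt19 at 0 in both libraries. The ratio of cDC2 shares was 2.08 without the cells that passed the NK or pDC gate.

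**Figure D2:**
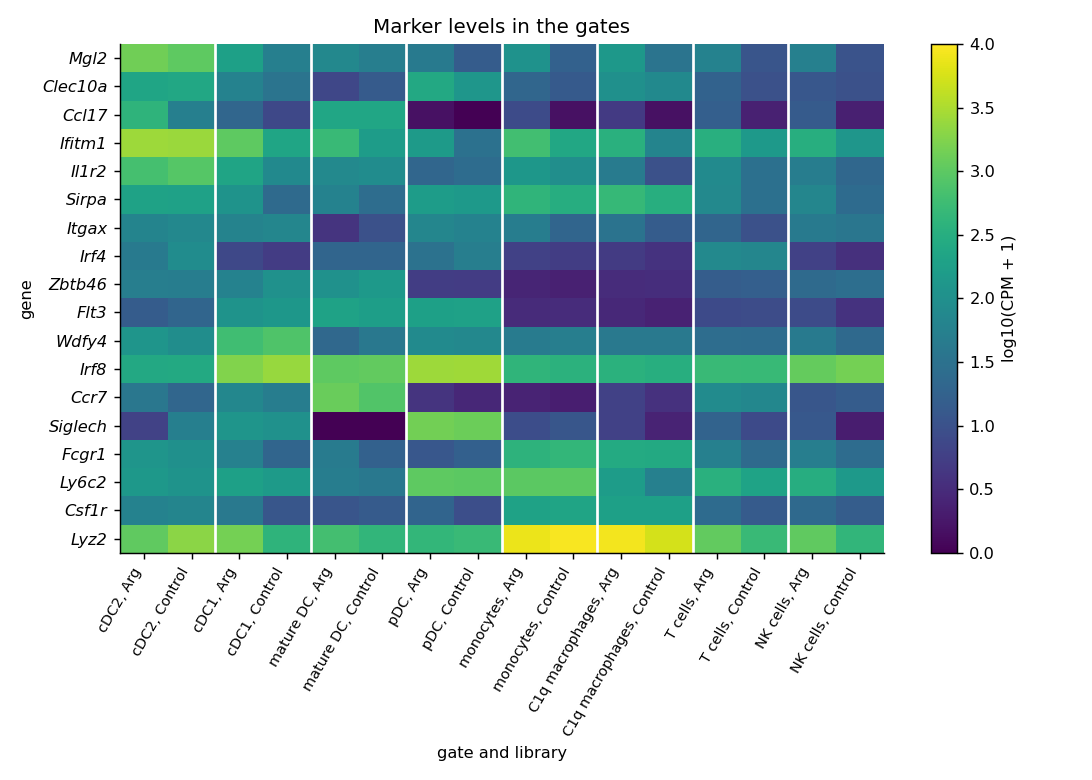
Level of 18 marker genes (rows) as log10 of CPM plus 1 (colour), in 8 gates of the Arg and Control library (columns, Arg left in each pair). cDC2 columns are bright for Mgl2, Ifitm1 and Il1r2, and darker than the pDC columns for Flt3 and Siglech; Fcgr1 and Csf1r are brightest in monocytes and C1q macrophages.

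The genes that set cDC2 off from all other kept barcodes of the same library were ranked by the smaller of the 2 libraries' ratios, as a description with no test. The rule itself chose cells by Cd209a, at 738 CPM in Arg and 629.6 CPM in Control cDC2 (gene at chr8:3743397-3748984 on GRCm38) and at 12.3 and 4.81 CPM in the rest. Mgl2 (chr11:70130329-70137550) led the genes outside the rule, with log2 ratios over the rest of 3.62 in the Arg and 5.22 in the Control library. The rest of the Arg library held 106 CPM of Mgl2, and the rest of the Control library 22.3 CPM.

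Receptors followed. Timd4, a phosphatidylserine receptor, was at 265 CPM in Arg and 273 CPM in Control cDC2, and Il1r2, the decoy receptor for interleukin-1, was at 661 and 891 CPM. Adam23, a membrane protein of the metalloprotease family, was at 86.6 and 82.9 CPM. Dcstamp, known for cell fusion in osteoclasts and for antigen presentation by dendritic cells, was at 154 and 200.4 CPM. Levels of these genes differed by less than 1.5-fold between the libraries.

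Adhesion and processing genes completed the set. Cdh1, the adhesion protein E-cadherin, was at 129 CPM in Arg and 77.4 CPM in Control cDC2, and was found in 88 and 29 cells. Ifitm1, an interferon-induced membrane protein, reached 2617 and 2509 CPM. Napsa, an aspartic protease, was at 379.9 CPM in Arg and 394 CPM in Control cDC2, with like levels in pDC (428 and 366 CPM). The remaining genes of the 15 were Ccl17, Cd209d and Clec10a, and also Rtn1, Sept3, Nectin1 and Cbfa2t3, which ranged over 62.5 to 128 CPM in Arg and 63.8 to 159 CPM in Control cDC2.

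cDC2 were not uniform. No Mgl2 was found in 33 Arg cells (21.7%) and 16 Control cells (22.9%). Cd209a, which chose all cells, was at 694 and 730.3 CPM in them and at 749 and 608 CPM in the Mgl2-positive cells. The cells with no Mgl2 were shallower, with medians of 9484 (Arg) and 11923.5 UMIs (Control), against 13380 and 14320 UMIs. The part of depth in this split was not tested. Cst3, the cystatin C gene that is high in conventional dendritic cells, was at 2476 CPM in the Arg cells with no Mgl2 and 11500 CPM in the Arg cells with it. In the Control library it was at 4959 CPM without and 5488 CPM with Mgl2.

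Plet1, a surface glycoprotein carried by a subset of tissue dendritic cells, marked a group with more Cst3. The 57 Arg cells with a Plet1 UMI had 16494 CPM of Cst3, against 4950 CPM in the 95 Arg cells without one. The 19 Control cells with Plet1 had 7541 CPM, against 4595 CPM in the 51 without. Ifitm1 followed the same split, at 4109 CPM with and 1550 CPM without Plet1 in the Arg library, and at 3713 and 2061 CPM in the Control library. Ly6c2 ran the other way, at 57.8 CPM with and 191 CPM without Plet1 in the Arg library, and at 47.0 and 136 CPM in the Control library. Plet1-positive cells were deeper in the Arg library (medians of 14157 and 11239 UMIs) and shallower in the Control library (10831 and 13937 UMIs).

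Across the 5690 genes with a mean of at least 20 CPM in cDC2, 233 (4.09%) were more than 1.5-fold higher in the Arg cells and 379 (6.66%) more than 1.5-fold lower, or 10.8% in either direction, on the scale of log2 of Arg CPM plus 5 over Control CPM plus 5. The median over all of them was 0.01. These counts say how widely 2 small pools of cells differ and carry no test. The counts depend on the depth kept: with each cell thinned to 2000 UMIs, 1000 genes were higher and 1045 lower.

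Among genes with at least 50 CPM that were higher in the Arg cells, the type 2 chemokine Ccl17 stood out. Ccl17 (chr8:94810453-94812036), a ligand of CCR4 on T helper and regulatory T cells, ranged per cell from 0 to 8053 CPM in the Arg library and from 0 to 767 CPM in the Control library, with a median of 0 in both. It was found in 51 of 152 Arg and 11 of 70 Control cDC2. Most cells of both libraries were thus at 0, and the highest Arg cells lay above all Control cells. The summed level was 393 CPM in Arg cDC2 and 51.9 CPM in Control cDC2, a 7.57-fold ratio (5.79 to 10.1). Without the cells holding Ly6c2 or Fcgr1 the levels were 514 and 129 CPM, and the log2 ratio of 2.81 was 1.95. After thinning each cell to 2000 UMIs, 22.4% of Arg and 5.71% of Control cDC2 kept a Ccl17 UMI, against 0.613% and 0.0828% of T cells, whose median depth was 8550.5 and 8522 UMIs.

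Ccl17 was also present in mature dendritic cells, at 236 CPM in the Arg and 229.7 CPM in the Control library, without the gap seen in cDC2. Over all kept barcodes outside cDC2 it was at 13.2 CPM in the Arg and 3.71 CPM in the Control library, so a gap was not particular to cDC2. The cell with the most Ccl17 held 114 of 831 Arg UMIs, and in the Control library 25 of 57; without these cells the levels were 339 and 29.2 CPM. The Arg cells with Ccl17 did not hold more Cd209d or Ifitm1 than those without: Cd209d was at 142 CPM with and 223 CPM without Ccl17, and Ifitm1 at 1394 and 3326 CPM.

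Lectins of the Cd209 family next to Cd209a were higher in Arg than in Control cDC2. Cd209d (chr8:3871824-3878555), a C-type lectin that binds glycans of pathogens, was found in 57 Arg and 21 Control cDC2. It summed to 193 CPM in Arg and 67.4 CPM in Control cDC2, a 2.86-fold ratio (2.23 to 3.72), and its log2 ratio of 1.45 was 0.60 without the cells holding Ly6c2 or Fcgr1. The direction was the opposite in the cells left out for having no H2-DMb2 UMI, with Cd209d at 175 CPM (Arg) and 262 CPM (Control). Over all kept barcodes outside cDC2 Cd209d was level, at 8.56 and 8.27 CPM. Cd209e was at 58.2 and 16.4 CPM, from 23 Arg and 6 Control cells. The 15 measured C-type lectin genes had a median log2 ratio of 0.13. Of these, 2 were past 1.5-fold higher (Cd209d and Cd209e) and 1 lower, beside 4.09% and 6.66% of all genes. The lower one was Clec4b1, a lectin of conventional dendritic cells, at 30.8 CPM in Arg and 74.7 CPM in Control cDC2.

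Plet1 (chr9:50494525-50505482) was at 327 CPM in Arg and 79.3 CPM in Control cDC2, from 57 and 19 cells, a 4.13-fold ratio (3.30 to 5.22). It was higher in cDC1 of both libraries, at 658 and 419.6 CPM. Up to 1 Xcr1 or Clec9a UMI is allowed in a cDC2, and the 17 Arg cells and 1 Control cell set aside for 2 or more had 645 CPM of Plet1 in the Arg library and none in the Control cell.

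The remaining genes named as higher served other functions. Retnla (chr16:48842551-48844461), the interleukin-4 target RELM-alpha of mouse macrophages, summed to 121 CPM in Arg cDC2 and 0 in Control cDC2. The Arg level was at least 35.6-fold higher by the exact interval, and 44.1-fold higher against a floor of 3 UMIs over all Control cells. Retnla came from 13 cells, 1 of which held 129 of the 255 UMIs, and the Arg level was 59.6 CPM without that cell. Arg C1q macrophages held 222 CPM. Kept barcodes outside cDC2 held 82.5 CPM of Retnla in the Arg and 9.76 CPM in the Control library. A gap was thus not particular to cDC2. Among Arg cDC2 with at least 5 Cd209a UMIs Retnla was at 4.0 CPM. Socs1, an inhibitor of cytokine signalling through JAK kinases, was at 191 CPM in Arg and 69.2 CPM in Control cDC2. Kept barcodes outside cDC2 held 180 CPM of Socs1 in the Arg and 81.0 CPM in the Control library, so this gap was not particular to cDC2. Aif1, an actin-binding protein of myeloid cells, was at 300.4 and 128 CPM, from 133 of 152 and 46 of 70 cells. Its log2 ratio of 1.19 was 0.27 when cells were gated on thinned UMIs.

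Bnip3, a hypoxia-induced regulator of mitophagy, was at 185 CPM in Arg and 74.7 CPM in Control cDC2, and its log2 ratio of 1.25 was 0.26 without the cells holding Ly6c2 or Fcgr1. Pgf, placental growth factor, was at 80.0 and 31.0 CPM. Mmp25, a membrane-anchored metalloprotease, was at 102 and 41.0 CPM. Pde4d, a cAMP phosphodiesterase, was at 82.3 and 33.7 CPM. Sfi1, a centrin-binding protein, was at 93.2 CPM in Arg and 32.8 CPM in Control cDC2, and was higher in the Arg library in each of the 8 gates. Ncr1, the NK cell receptor NKp46, was at 71.0 and 31.9 CPM; in the cDC2 that passed neither the NK nor the pDC gate it was at 4.51 CPM in the Arg and 0 in the Control library.

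**Figure D3:**
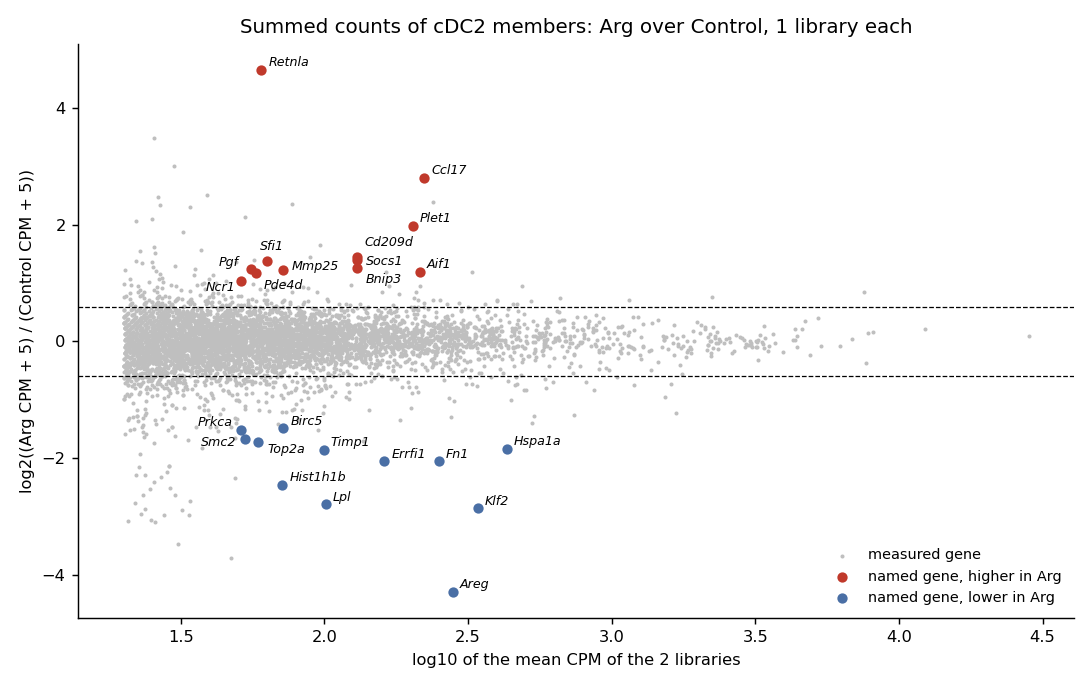
Each point is 1 of 5690 genes measured in cDC2; the x axis is log10 of the mean CPM of the libraries and the y axis the log2 ratio of summed levels, Arg over Control, after adding 5 CPM. Red and blue points are the 12 genes named as higher and the 12 named as lower in Arg; dashed lines mark 1.5-fold. Ccl17 lies at 2.81, Klf2 at -2.86 and Areg at -4.29.

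Klf2 was lower with many cells behind it. Klf2 (chr8:72319033-72321656), a transcription factor of resting leukocytes, ranged from 0 to 923 CPM per cell in the Arg library, with a median of 0, and from 0 to 3761 CPM in the Control library, with a median of 319. It was found in 64 of 152 Arg cells and 53 of 70 Control cells. The ranges overlapped, while the middle of the Control cells lay above the upper quartile of the Arg cells (99.2 CPM). The summed level was 79.0 CPM in Arg and 605 CPM in Control cDC2, a ratio of 0.131 (0.110 to 0.155). Leaving out the top cell of each library gave 72.4 and 549 CPM, and the log2 ratio lay between -3.13 and -2.53 under every alternative tried.

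The same direction was seen outside cDC2. Klf2 was at 352 CPM in Arg and 1237 CPM in Control cDC1, at 59.2 and 546 CPM in mature dendritic cells, at 223 and 837 CPM in monocytes and at 233 and 409 CPM in T cells. It is therefore not particular to cDC2. Klf4, a related factor that cDC2 of the type 2 helper branch need in mice, was at 183 CPM in Arg and 361 CPM in Control cDC2, and at 294 and 423 CPM in monocytes.

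Areg was lower with few cells behind it. Areg (chr5:91139599-91148432), an epidermal growth factor receptor ligand, was found in 13 Arg and 18 Control cDC2 and had a per-cell median of 0 in both libraries, with maxima of 980.1 CPM (Arg) and 8891 CPM (Control). The summed level was 22.7 CPM in Arg and 537 CPM in Control cDC2, and 1 Control cell held 188 of 589 UMIs. Without the top cell of each library the levels were 13.7 and 365 CPM, and the log2 ratio of -4.29 was -2.27 when cells were gated on UMIs thinned to 2000. Monocytes held 52.9 and 79.9 CPM, and C1q macrophages 19.8 and 17.6 CPM, so the level of Control cDC2 was above both.

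Hspa1a, the inducible HSP70 chaperone, was at 185 CPM in Arg and 677 CPM in Control cDC2, with per-cell medians of 0 and 297 CPM. It was found in 48 of 152 Arg and 53 of 70 Control cells. Timp1, an inhibitor of metalloproteases, was at 40.2 and 159 CPM, from 34 cells of each library. Errfi1, a feedback inhibitor of the epidermal growth factor receptor, was at 59.6 and 263 CPM, and 1 Control cell held 73 of 289 UMIs. For Fn1, the fibronectin gene, 1 Control cell held 192 of 446 UMIs, with levels of 94.2 and 406 CPM, or 78.5 and 231 CPM without the top cells. Lpl, the lipoprotein lipase gene, was at 21.8 and 180.4 CPM, and 81 of its 198 Control UMIs came from 1 cell. Prkca, a protein kinase C gene, was at 24.1 CPM in Arg and 78.4 CPM in Control cDC2. When cells were gated on UMIs thinned to 2000, the log2 ratios of Fn1, Lpl and Prkca turned positive, at 1.02, 2.22 and 2.63, and that of Errfi1 was -0.23.

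**Figure D4:**
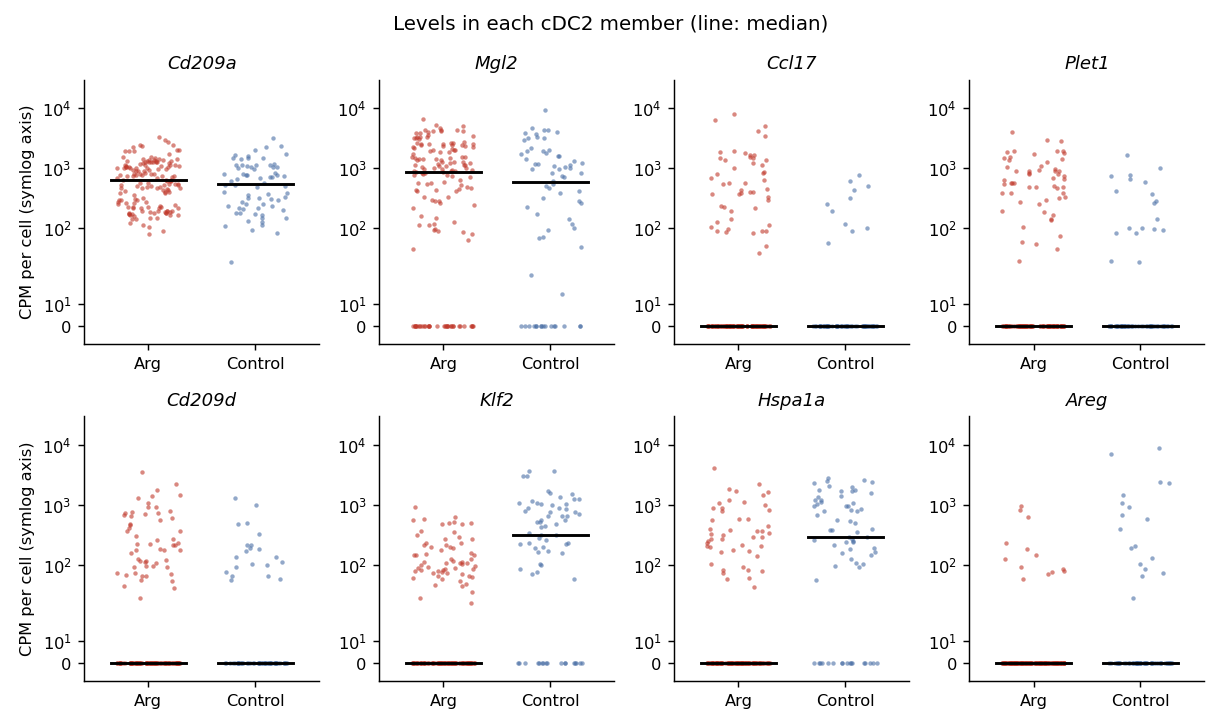
CPM of 8 genes in each of 152 Arg (left, red) and 70 Control (right, blue) cDC2, on an axis that is linear near 0 and logarithmic above 30; each point is 1 cell and the line is the median. Cd209a chose the cells; Klf2 and Hspa1a have medians of 0 in the Arg cells and of 319 and 297 CPM in the Control cells, while Ccl17, Plet1, Cd209d and Areg have a median of 0 in both.

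The named genes of the cell cycle were found in a minority of cells. Top2a, Smc2, Birc5 and Hist1h1b, which act in chromosome segregation and packing, were at 24.6, 22.7, 35.5 and 18.5 CPM in Arg cDC2 and at 92.9, 82.9, 108 and 124 CPM in Control cDC2. Cells with a Mki67 or Top2a UMI were 21 of 152 (13.8%) in the Arg library and 17 of 70 (24.3%) in the Control library. Of 23 measured cell cycle genes, 0 were past 1.5-fold higher and 19 past 1.5-fold lower, with a median log2 ratio of -1.31, against a background of 6.66% of genes lower and a median of 0.01. The median was -0.54 as a mean of per-cell CPM, -0.42 with a minimum of 100 CPM and -0.82 with the top cell of each gene left out. With those 21 and 17 cells left out the median was 0.12, and the log2 ratio of Birc5 was -0.016. The cells left out were chosen by cell cycle genes, so a smaller gap without them follows in part from that choice. The list was also lower in C1q macrophages (median -0.86), cDC1 (-0.57), monocytes (-0.35), pDC (-0.28) and mature dendritic cells (-0.10).

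Immediate early genes, which are induced within minutes of a stimulus, were lower in the Arg cells. Of 25 measured immediate early genes, 0 were past 1.5-fold higher and 14 lower, beside 6.66% of all genes lower, with a median of -0.69. Fos, the AP-1 subunit, was at 1203 CPM in Arg and 2003 CPM in Control cDC2, Jun at 311 and 763 CPM, Egr1 at 288 and 771 CPM, and the phosphatase gene Dusp1 at 432 and 1046 CPM. Of 13 measured heat shock chaperones, 0 were higher and 8 lower, with a median of -0.68. Dnajb1, a co-chaperone of HSP70, was at 57.2 and 140.3 CPM, and Hsph1, a nucleotide exchange factor for it, at 35.5 and 103 CPM. Medians of the heat shock list lay between -0.99 and -0.56 in the other 5 myeloid and dendritic gates, so the direction was shared by the libraries' other cells. The immediate early list was lower in these gates too. Its medians were -1.04 in pDC, -0.56 in cDC1, -0.40 in mature dendritic cells, -0.33 in monocytes and -0.03 in C1q macrophages.

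The interferon-gamma response was higher. Of 19 measured genes 7 were past 1.5-fold higher and 0 lower, with a median log2 ratio of 0.45, against a background of 4.09% of genes higher. The highest was Socs1, at a log2 ratio of 1.40. Cxcl9, the CXCR3 ligand, was at 458 CPM in Arg and 197 CPM in Control cDC2, from 87 of 152 and 25 of 70 cells. Irf1, a transcription factor of the response, was at 360.1 and 227 CPM, Gbp2, a guanylate-binding GTPase, at 128 and 75.6 CPM, and Iigp1, an immunity-related GTPase, at 328 and 209 CPM. Cxcl10, another CXCR3 ligand, was level, at 477 and 513 CPM. The median was 0.17 without the cells holding Mki67 or Top2a and 0.02 when cells were gated on UMIs thinned to 2000, which left 71 Arg and 25 Control cells. The same list was higher in the other gates, with medians of 0.30 to 0.68. T cells, which should lack Cxcl9, held 140.2 CPM of it in the Arg and 52.2 CPM in the Control library; the part of free RNA in the cDC2 level was not tested.

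Of 22 measured type I interferon genes, 1 was past 1.5-fold higher and 7 lower, beside 4.09% and 6.66% of all genes, with a median of -0.17. The median was 0.29 without the cells holding Ly6c2 or Fcgr1. Rsad2, the antiviral enzyme viperin, was at 61.0 CPM in Arg and 211 CPM in Control cDC2, and Ifit2 at 44.0 and 118 CPM. Rsad2 was found in 30 Arg and 19 Control cells, and 1 Control cell held 85 of its 232 UMIs. The higher gene was Ms4a4c, at 828 and 494 CPM. The same list was also lower in pDC, with a median of -0.50. Its medians were 0.41 in cDC1, 0.82 in mature dendritic cells, 0.32 in C1q macrophages and 0.06 in monocytes.

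MHC class II was high in both libraries. H2-Aa, the alpha chain of I-A, was at 8170 CPM in Arg and 7428 CPM in Control cDC2, with per-cell medians of 8704 and 7923 CPM. Cd74, the invariant chain, was at 8582 and 7669 CPM, and Ciita, the master regulator of the locus, at 180 and 132 CPM. Of 16 measured genes of the list 1 was past 1.5-fold higher and 0 lower, beside 4.09% and 6.66% of all genes. The median was 0.22, or -0.014 when cells were gated on thinned UMIs. H2-Oa, a chain of the H2-DM inhibitor H2-O, was the one past the fold, at 36.4 and 21.9 CPM. H2-DMb2 belongs to the list and to the rule, at 392.2 and 287 CPM, so the list is not independent of how the cells were chosen. In monocytes and C1q macrophages the list had medians of 0.63 and 0.87, with 7 of 14 and 11 of 14 genes past 1.5-fold higher, where 2.29% and 5.3% of all genes measured in those gates were. H2-Aa in C1q macrophages, for example, was at 3805 CPM in the Arg and 1572 CPM in the Control library.

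MHC class I processing was also near parity, with a median of 0.07. Of 22 genes, 1 was past 1.5-fold higher and 1 lower, beside 4.09% and 6.66% of all genes. Psme2, a subunit of the proteasome activator PA28, was at 444 CPM in Arg and 282 CPM in Control cDC2, and H2-Q6, a class Ib gene with close copies among which reads may be split, at 17.0 and 41.9 CPM. Naaa, an acid amidase known as a cDC1 marker, was at 644 and 332 CPM in cDC2.

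Costimulatory genes showed no common direction, with a median of -0.02. Of 15 measured, 3 were past 1.5-fold higher and 1 lower, beside 4.09% and 6.66% of all genes. Cd80 and Cd86, the ligands of CD28, were level, at 264 CPM in Arg and 278 CPM in Control cDC2 and at 635 and 583 CPM. Pdcd1lg2, the PD-1 ligand PD-L2, was higher, at 222 CPM in Arg and 113 CPM in Control cDC2, from 118 of 152 and 41 of 70 cells. Cd274, the ligand PD-L1, was at 499 and 363 CPM. Havcr2, which encodes TIM-3, was at 80.9 and 43.7 CPM, and Icam1, an adhesion ligand, at 77.6 and 47.4 CPM. Icosl, the ligand of ICOS, was lower, at 17.5 and 32.8 CPM. Pdcd1lg2 was also higher in the Arg library in cDC1 (246 and 64.8 CPM) and monocytes (130.5 and 23.3 CPM).

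The interleukin-4 and interleukin-13 list took up Ccl17, Retnla, Pdcd1lg2 and Socs1, whose values are given above, and 8 of its 19 measured genes were past 1.5-fold higher and 2 lower, beside 4.09% and 6.66% of all genes. The 8 include Arg1, which is not read as expression in cDC2. The median log2 ratio of the list was 0.28. The list was higher in the other gates too, so its direction was not particular to cDC2. Its medians were 0.67 in cDC1, 0.46 in pDC, 0.36 in mature dendritic cells, 0.28 in monocytes and 0.24 in C1q macrophages. The receptor subunits Il4ra and Il13ra1 were at 69.5 and 67.2 CPM in Arg and at 72.9 and 42.8 CPM in Control cDC2. Stat6, the factor downstream of them, was at 46.4 and 37.4 CPM. Ccl24, an eosinophil chemokine, came from 15 Arg and 5 Control cells, at 48.3 and 5.47 CPM, against 21.2 and 14.7 CPM in T cells, and Ccl22, the other CCR4 ligand, from 18 and 9 cells, at 41.6 and 19.1 CPM. Arg1, the arginase gene, was at 70.0 and 8.20 CPM, below T cells of the same libraries (130.1 and 43.9 CPM). The lower genes were Irf4 and Klf4.

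Chemokines showed no common direction. Of 19 measured, 7 were past 1.5-fold higher and 7 lower, beside 4.09% and 6.66% of all genes. The median of 0.50 turned negative under 3 alternatives. Besides Ccl17, Ccl24 and Cxcl9, the higher ones were Ccl5, Ccl7, Ccl22 and Pf4, and of these Ccl5 (89.4 and 16.4 CPM) and Pf4 (132 and 21.9 CPM) lay below T cells of the same libraries. Ccl7, a monocyte attractant, was at 263 CPM in Arg and 159 CPM in Control cDC2. Among the lower ones, Cxcl2, a neutrophil chemokine, was at 1001 CPM in Arg and 2354 CPM in Control cDC2, where 1 cell held 572 of 2584 UMIs, Cxcl1 at 41.2 and 101.1 CPM, Ccl2 at 251 and 427 CPM, Ccl9 at 123 and 276 CPM and Ccl4 at 892 and 1507 CPM. Of the cytokines, Il1b was level at 2905 and 3040 CPM, and Tnf was at 59.1 and 111 CPM.

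Lists that bear on the diet had medians between 0.08 and 0.20. The 16 measured arginine and polyamine genes had a median of 0.10. Of these, 1 was past 1.5-fold higher (Arg1) and 1 lower (Srm), beside 4.09% and 6.66% of all genes. Slc7a1, a transporter of cationic amino acids, was at 52.5 CPM in Arg and 63.8 CPM in Control cDC2. Ass1, which makes the precursor of arginine from citrulline, was at 167 and 111 CPM, from 110 of 152 and 53 of 70 cells. Of 18 measured amino acid starvation genes 3 were higher and 2 lower, beside the same shares of all genes, with a median of 0.20. Slc7a11, the cystine transporter, was at 112 and 56.5 CPM, Ddit4 at 17.0 and 41.9 CPM, and Atf4 itself at 126 and 116 CPM. Glycolysis and hypoxia genes had 5 of 25 past 1.5-fold higher, beside 4.09% of all genes, and 0 lower, namely Bnip3, Egln3, Pfkp, Ndrg1 and Hk3, while Gapdh was at 1687 and 1566 CPM. The median was 0.08, or -0.36 without the cells holding Ly6c2 or Fcgr1. Oxidative phosphorylation genes had 0 of 29 past 1.5-fold in either direction, with a median of 0.11.

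**Figure D5:**
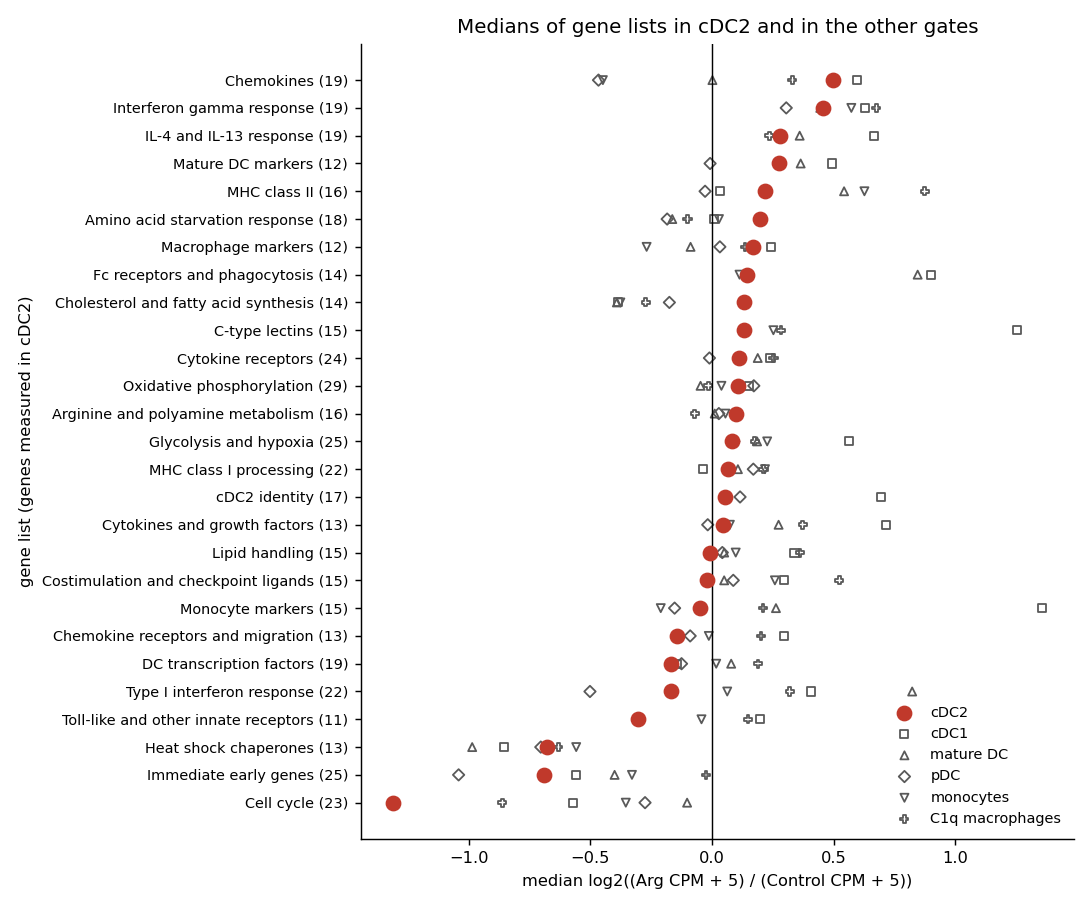
Median log2 ratio, Arg over Control, of the gene lists with at least 10 measured genes (rows, number of genes measured in cDC2 in brackets), in cDC2 (red) and in 5 other gates (open symbols). In cDC2 the cell cycle (-1.31), immediate early (-0.69) and heat shock (-0.68) lists lie lowest and the chemokine (0.50) and interferon-gamma (0.45) lists highest. The other gates share the sign of the cell cycle, immediate early, heat shock and interferon-gamma lists.

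Transcription factors of dendritic cells were mostly level, with a median of -0.17. Of 19 measured, 0 were past 1.5-fold higher and 3 lower (Irf4, Klf4 and Bcl11a), beside 4.09% and 6.66% of all genes. Irf8, which cDC1 depend on, was at 261 CPM in Arg and 272 CPM in Control cDC2, Id2 at 508 and 571 CPM, and Spi1, which encodes PU.1, at 402 and 373 CPM. Irf4 was found in 49 of 152 Arg and 36 of 70 Control cDC2. Of the Fc receptors, Fcgr3 was at 286 CPM in Arg and 145 CPM in Control cDC2 and the inhibitory Fcgr2b at 381 and 251 CPM, the 2 of 14 genes of the phagocytosis list past 1.5-fold. Csf2rb, the shared receptor chain for the dendritic growth factor GM-CSF, was at 342 and 286 CPM, and Ccr7, the receptor that guides dendritic cells to lymph nodes, came from 12 Arg and 4 Control cells, at 37.4 and 20.0 CPM.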

How the data were processed

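The deposited files hold raw UMI counts per gene and barcode, which the authors made from 10x Genomics 3' v3 libraries per the labels. Cell Ranger is given as 7.0.1 per the file headers and as 2.2.2, with build GRCm38, per the submitters' processing notes. The handling of introns is not stated there. Of 32285 gene IDs, 32158 were found in GENCODE M21 (GRCm38), which gave the positions.

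UMIs of the cDC2 of each library were summed and scaled to CPM. A gene was measured at a mean of at least 20 CPM, and ratios added 5 CPM to each level; a gene was counted as higher or lower past 1.5-fold. No test was run. Named genes were the 12 highest and 12 lowest ratios among genes with a mean of at least 50 CPM, leaving out mitochondrial, ribosomal, Gm-number and Rik genes. They had to keep their direction at 3 Cd209a UMIs and without cells holding Ly6c2 or Fcgr1, and their level in the higher library's cDC2 had to reach 25% of that library's overall level. Also named were the 15 genes with the highest ratio over the other barcodes and, from each of 36 gene lists, the extreme genes and those whose role is described. The members and lists were chosen with earlier results of these data known. The H2-DMb2-negative, Plet1, Mgl2 and Ccl17 splits were chosen after values had been seen. Some genes that the rule names are not reported here.

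The comparison gates were at least 2 UMIs of Xcr1 and Clec9a (cDC1), 2 of Fscn1 with 1 of Ccr7 (mature dendritic cells), 3 of Siglech with 1 of Ccr9 or Cox6a2 (pDC), 2 of Ly6c2 with 1 of Csf1r (monocytes), 16 of C1q genes (macrophages), 3 of Cd3 genes (T cells) and 2 of Ncr1 and Klrb1c (NK cells). Doublets were called with Scrublet in scanpy 1.11.5 at an expected 8%, marking 884 Arg (6.37%) and 687 Control (5.09%) barcodes, and were kept in the main result. Counts and shares of cells with a UMI are from unthinned counts, except where thinning each cell to 2000 UMIs is stated. Python 3.11.15, numpy 2.4.6, scipy 1.17.1, pandas 2.3.3 and edgeR 4.0.16 (for TMM factors) in R 4.3.3 were used, and the ratio step was checked on simulated data.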

Additional observations from a re-analysis of the deposited data

How the results depend on the processing

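The main limit is 1 library per diet and 222 cells. The ratio of cDC2 shares lay between 1.65 and 2.74 under 12 alternatives, and its largest value came from gating after each cell was thinned to 2000 UMIs, which left 71 Arg and 25 Control cells. No paired analysis was possible because each diet had 1 library. The counts of genes past 1.5-fold, 233 higher and 379 lower, depended on the settings. Higher genes numbered 813 when cells were gated on thinned UMIs, 737 without cells holding Ly6c2 or Fcgr1, 113 with a pseudocount of 20 CPM, 44 with a minimum of 100 CPM, 587 with no minimum and 1000 after thinning the sums. Lower genes numbered 682 without cells holding Ly6c2 or Fcgr1, 224 with a pseudocount of 20 CPM, 67 with a minimum of 100 CPM, 1211 with no minimum, 1045 after thinning and 210 with the top cell of each gene left out, an alternative chosen after seeing the data. Fewer or more genes are tested with another minimum; the cause of the other shifts was not tested.

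Of 456 values of the 24 genes named between the libraries, 5 reversed: log2 ratios of Fn1 (1.02), Lpl (2.22) and Prkca (2.63) with the gate on thinned UMIs, Ncr1 (-0.0099) without cells holding Mki67 or Top2a and Top2a (0.085) after thinning. Of 609 list medians 13 reversed, counting the 14 lists whose median was at least 0.2 in size. Of the 19 lists under 0.2, 16 changed sign under at least 1 alternative (76 of 361 values), so their direction is not read. Among the lists of at least 0.2, those reversed with the gate on thinned UMIs were the chemokine (-0.32), MHC class II (-0.014), mature dendritic (-0.030), T cell (0.39) and pDC (0.93) lists. Without cells holding Ly6c2 or Fcgr1 they were the chemokine (-0.42) and B lineage (0.21) lists, and without cells holding Mki67 or Top2a the cell cycle (0.12) and NK (-0.0099) lists. The chemokine list was at -0.40 with a minimum of 100 CPM. The NK list was at -1.45 with at most 5 C1q UMIs and at -0.015 after thinning, and the T cell list at 0.19 with 1 Cd209a UMI. Ratios of Klf2 (-3.13 to -2.53), Ccl17 (1.95 to 3.39), Plet1 (1.56 to 2.19) and Hspa1a (-2.88 to -1.42) kept their direction under all alternatives run, and the heat shock list lay between -0.78 and -0.38. TMM scaling and the other alternatives moved the median of all genes by at most 0.07.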

Other observations

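The counts in this section stand beside 4.09% of all genes measured in cDC2 past 1.5-fold higher and 6.66% lower. Cytokine receptors of cDC2 showed 2 of 24 measured genes past 1.5-fold higher, 2 lower and a median log2 ratio of 0.11. Ifngr2, a chain of the interferon-gamma receptor, was at 146 CPM in Arg and 92.0 CPM in Control cDC2, from 127 of 152 and 48 of 70 cells, while its partner Ifngr1 was at 144 and 249.7 CPM. Il1rl1, the receptor of interleukin-33, was at 7.57 and 50.1 CPM, from 7 and 12 cells, and T cells held 41.1 and 28.8 CPM. Cytokine genes had 0 of 13 higher and 3 lower, with a median of 0.04, and the highest was Il18bp, an inhibitor of interleukin-18, at 27.0 and 16.4 CPM. Chemokine receptor and migration genes had 1 of 13 higher (Ccr7) and 1 lower, with a median of -0.14. Innate receptors had 0 of 11 higher and 1 lower (Cgas, at 15.6 and 29.2 CPM), with a median of -0.30, and Tlr4 was at 60.6 and 40.1 CPM.

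Lipid handling genes had 3 of 15 past 1.5-fold higher and 2 lower, with a median of -0.01. Lgals3, which encodes galectin-3, was at 2804 CPM in Arg and 1653 CPM in Control cDC2, Fabp5, a fatty acid carrier, at 206 and 112 CPM, and Abca1, a cholesterol exporter, at 40.7 and 10.9 CPM against 44.8 and 22.3 CPM in T cells. Cholesterol and fatty acid synthesis genes had 0 of 14 past 1.5-fold in either direction and a median of 0.13. Of 17 measured genes of the cDC2 identity list, which was drawn up with these data known, 3 were higher (Ccl17, Cd209d and Cd209e) and 4 lower, with a median of 0.05, and Cd72, an inhibitory lectin, was lowest at 25.1 and 73.8 CPM. The phagocytosis list had a median of 0.15, with Scarb1, a lipoprotein receptor, lowest at 15.6 and 25.5 CPM.

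At the other ends of the lists, Runx3 was at 303 CPM in Arg and 225 CPM in Control cDC2, H2-Ob at 19.9 and 27.3 CPM, P4ha1 at 83.7 and 126.6 CPM, Uqcrc1 at 47.8 and 58.3 CPM and Ndufa1 at 166 and 110.2 CPM. The histone gene H2afz was at 2438 and 2053 CPM, Rrm2 at 5.2 and 62.9 CPM, Dusp2 at 96.5 and 69.2 CPM and Hspa5 at 574 and 543 CPM. Among markers of other cells, the measured monocyte genes had 3 of 15 higher and 3 lower (median -0.05), the macrophage genes 3 of 12 and 2 (0.17), the mature dendritic genes 3 of 12 and 1 (0.27), the cDC1 genes 1 of 7 and 1 (-0.03), the pDC genes 0 of 6 and 3 (-0.61) and the NK genes 2 of 5 and 0 (0.56). Siglech was found in 3 cells of each library, at 5.2 and 52.9 CPM, and Col1a2 in 3 and 8 cells, at 1.42 and 44.7 CPM. Of the T cell genes 0 of 2 were higher and 1 lower, and the 1 measured B lineage gene, Ighm, was lower at 23.7 and 45.6 CPM. Summed over each list, markers of neutrophils came to 51.6 CPM in Arg and 40.1 CPM in Control cDC2, and markers of mast cells to 8.99 and 1.82 CPM, with no gene of either list above the minimum.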
